A study of Homo sapiens with 6 samples.

Results

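Glycogen is the branched glucose store of animal cells, and the transcripts described here are those of 10 genes that make it, break it down or dock the phosphatase PP1 on it. The genes were taken by symbol for their known roles, with earlier results of these data known, and all 10 were found among the 28278 symbols measured. Shares of all genes given beside counts of members are therefore a description, not a test of the list. They are GYG1, GYS1 and GBE1 for synthesis, PGM1 and UGP2 for the sugar precursors, PYGL and PYGB for breakdown, and PPP1R3B, PPP1R3C and PPP1R3D for PP1 targeting. Messenger RNA was sequenced from RKO cells, an established human colon carcinoma line, in 3 libraries labelled GSK3B knockout (KO) and 3 labelled GSK3B wild-type (WT), with no treatment given for either group. The design allows transcript levels to be compared between the KO and WT libraries. The method of knockout, its origin in a clone or a pool, and the cultures behind the replicates are not given in the labels. A p-value here therefore weighs a difference against the spread among libraries of unknown origin, and that spread could be technical.

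Glycogenin primes a new glycogen particle, glycogen synthase extends its chains from UDP-glucose, and the branching enzyme adds the branch points. Glycogen phosphorylase removes glucose as glucose-1-phosphate, which phosphoglucomutase converts to glucose-6-phosphate. GSK3 takes its name from its phosphorylation of glycogen synthase, which lowers the enzyme's activity, and PP1 reverses that phosphorylation when a PPP1R3 subunit brings it to glycogen. These are events on proteins, and counts of messenger RNA do not measure them.

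Total counts ran from 32379369 to 33558362 per library. GSK3B itself was lower in the KO libraries, at 46.0, 47.5 and 47.1 CPM (counts per 1000000 counts of a library, scaled by TMM), against 99.0, 97.6 and 91.4 CPM in WT libraries. That is 48.8% of the WT level (95% interval 45.4 to 52.4; edgeR quasi-likelihood test, Benjamini-Hochberg adjusted p = 1.88e-12). Because reads are summed over the gene, the counts cannot tell whether the transcript that remains encodes an active kinase. Among markers of the labelled cells, KRT8, KRT18, CDX2 and VIL1 had 513 to 2500 counts in every library, and CDH1 and CDX1 were listed at 0. EPCAM, another epithelial marker, was low, with 34 to 37 counts in KO libraries and 80 to 140 counts in WT libraries. The leukocyte markers PTPRC and CD3E and the liver marker ALB were listed at 0 in every library, while CD68, which is not restricted to leukocytes, had 24311 to 25416 counts. The 3 fibroblast markers COL1A1, COL3A1 and DCN summed to 7 to 12 counts in KO libraries and 16 to 104 counts in WT libraries, with the highest sum in WT replicate 3. The part of these markers in the results was not tested.

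Of the glycogen genes, PPP1R3B and PGM1 passed the test, and both were lower in KO than in WT cells. PPP1R3B, the subunit that carries PP1 to glycogen in liver and other tissues, fell to 75.1% of the WT level. PGM1, which links glucose-1-phosphate and glucose-6-phosphate, fell to 86.9%. The other 7 tested genes did not pass the test, and PPP1R3C had too few counts to be tested. The threshold barely separated PGM1 from GBE1, which was at 89.1% of the WT level (edgeR, adjusted p = 0.0571). PGM1 lost its call without KO replicate 2, KO replicate 3 or WT replicate 2. Of 9 tested members 2 were therefore lower and 0 higher at an adjusted p under 0.05 (edgeR), where 7.18% of the 14409 tested genes were lower, 6.36% higher and 13.5% changed in either direction. DESeq2 and limma-voom called the same 2 members, when 13.7% and 13.2% of genes were called, and at an unadjusted p under 0.05 edgeR had 5 of 9 members lower and 0 higher, where 14.1% of all tested genes were lower and 13.9% higher. The median log2 fold change was -0.10 over the 9 members and 0.00067 over all tested genes.

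**Figure D1:**
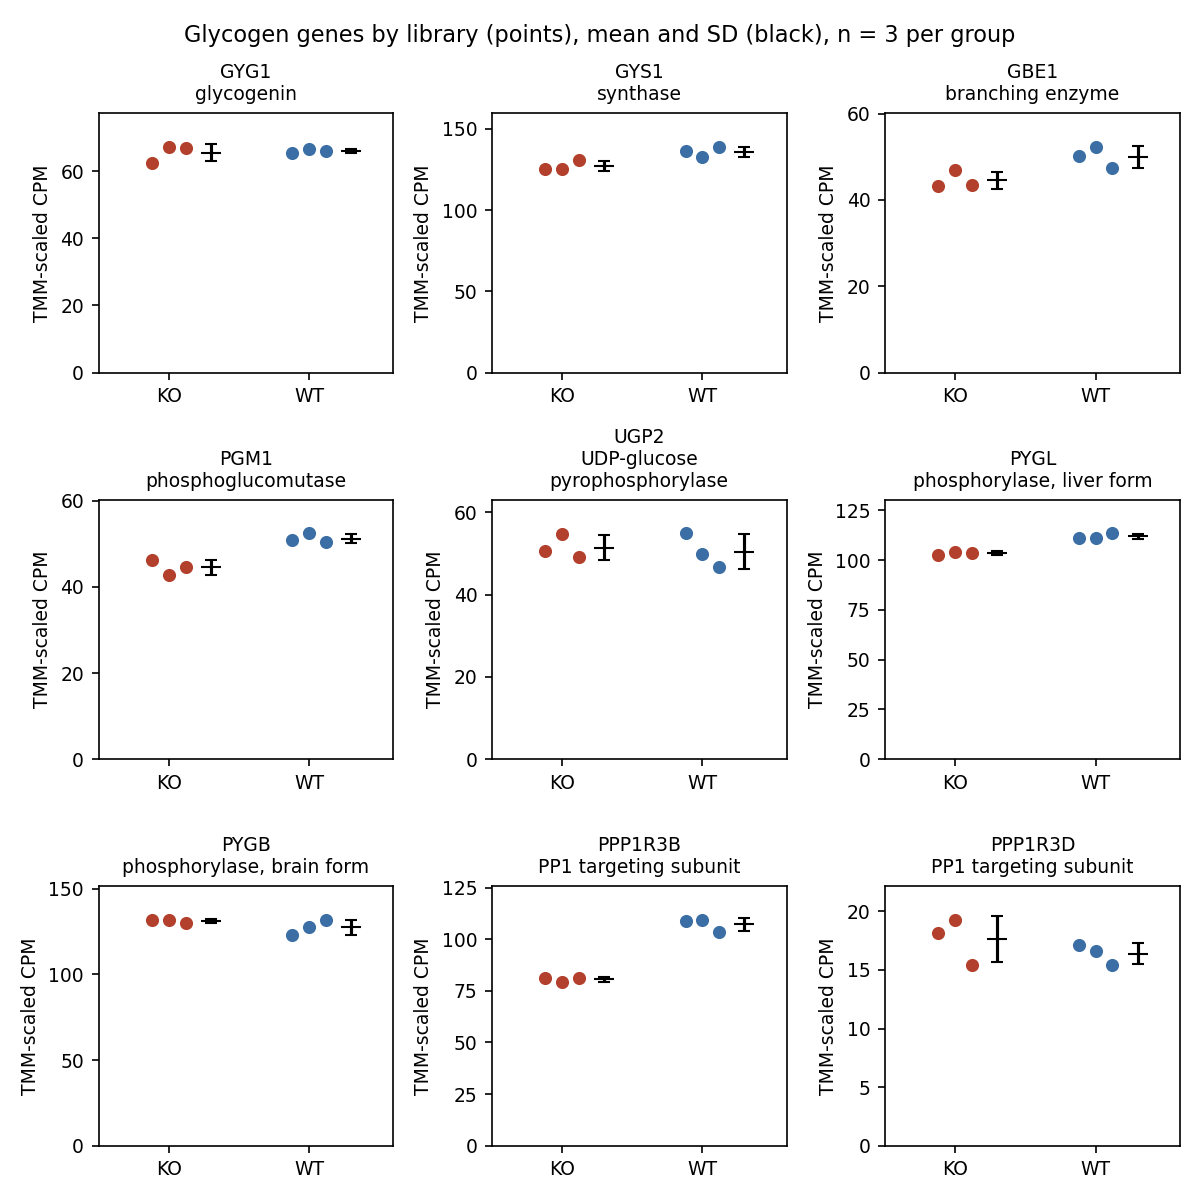
TMM-scaled CPM of the 9 tested glycogen genes in each KO library (red, left) and WT library (blue, right), with the group mean and SD in black (n = 3 per group), each axis starting at 0. PPP1R3B lies at 79.3 to 81.1 CPM in KO libraries and 104 to 109 CPM in WT libraries, the widest gap of the 9.

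PPP1R3B (chromosome 8, 9136255 to 9151574, minus strand, hg38) had 81.1, 79.3 and 81.1 CPM in KO replicates 1 to 3, against 109, 109 and 104 CPM in WT replicates 1 to 3. All 3 KO libraries lay below all 3 WT libraries, and the KO libraries were within 2 CPM of each other. Its log2 fold change was -0.41 ± 0.05 (SE, n = 3 per group; 95% interval of the KO level 70.4% to 80.1% of WT; edgeR, adjusted p = 7.83e-07). By exact permutation of the libraries (two-sided) p was 0.1, and 3 against 3 cannot give less. The log2 fold change ran from -0.44 to -0.40 over the fits without 1 library and was -0.40 after a correction for transcript GC content. Without WT replicate 3, which had the most fibroblast marker counts, it was -0.44. PPP1R3B shares 245 of its 5776 exon positions with an antisense gene. In such bulk totals, less RNA per cell and fewer expressing cells cannot be told apart.

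PPP1R3D, another PP1 targeting subunit (chromosome 20, 59936668 to 59940297, minus strand), had 18.1, 19.3 and 15.4 CPM in KO replicates 1 to 3, against 17.1, 16.7 and 15.4 CPM in WT replicates 1 to 3. The groups overlapped, and the interval of the KO level, 94.8% to 122% of WT, includes equality (edgeR, adjusted p = 0.484). Its log2 fold change of 0.10 was 0.030 without KO replicate 2 and 0.19 without KO replicate 3, and passed in neither. It shares 123 of its 3630 exon positions with FAM217B on the opposite strand. PPP1R3C, known as PTG for protein targeting to glycogen (chromosome 10, 91628442 to 91633054, minus strand), had 0 counts in the 3 KO libraries and 2, 0 and 0 counts in WT replicates 1 to 3. A count of 0 allows up to 3 counts, or 0.0894 to 0.0927 CPM by library size, counting error only, so no fold is given. Within a library the ratio of PPP1R3D to PPP1R3B counts was 0.223, 0.243 and 0.190 in KO replicates 1 to 3, against 0.158, 0.152 and 0.149 in WT replicates 1 to 3. This ratio does not depend on library scaling, and its groups did not overlap, as was so for 31.3% of single tested genes in either direction. The share among ratios of genes was not computed. PPP1R3B alone had a log2 fold change of -0.41 and PPP1R3D of 0.10, so the ratio and the shares below mostly restate the fall of PPP1R3B. The log2 ratio differed by 0.51, KO minus WT (exact permutation p = 0.1, the smallest possible). Measured as CPM per kilobase of the longest transcript, PPP1R3B made up 70.9% ± 2.19 of the summed level of the 4 tested PPP1R3 genes (PPP1R3B, PPP1R3D, PPP1R3E and PPP1R3F) in KO cells and 76.4% ± 0.125 in WT cells (SD, n = 3). PPP1R3D made up 23.7% ± 2.17 in KO cells and 17.9% ± 0.498 in WT cells. PPP1R3B was thus the most abundant of these transcripts per length in both groups.

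PGM1 (chromosome 1, 63593276 to 63660245, plus strand, hg38) had 46.3, 42.7 and 44.5 CPM in KO replicates 1 to 3, against 50.9, 52.4 and 50.4 CPM in WT replicates 1 to 3. The groups did not overlap, and the nearest libraries, KO replicate 1 and WT replicate 3, were about 4 CPM apart. Its log2 fold change was -0.20 ± 0.06 (SE, n = 3 per group; 95% interval of the KO level 80.3% to 94.1% of WT; edgeR, adjusted p = 0.0161; exact permutation p = 0.1). The call was lost without KO replicate 2 (log2 fold change -0.18, adjusted p = 0.108), without KO replicate 3 (-0.20, adjusted p = 0.0597) and without WT replicate 2 (-0.18, adjusted p = 0.0910). PGM1 shares 197 of its 4212 exon positions with ITGB3BP on the opposite strand, and the strand setting of the counts is not given in the sources used here. UGP2, which makes UDP-glucose from glucose-1-phosphate (chromosome 2, 63840940 to 63891562, plus strand), had 50.5, 54.7 and 49.0 CPM in KO replicates 1 to 3, against 54.9, 49.8 and 46.7 CPM in WT replicates 1 to 3. Its groups overlapped widely, with the KO level at 102% of WT (95% interval 93.2 to 111; edgeR, adjusted p = 0.824). Its log2 fold change of 0.027 turned to -0.023 without KO replicate 2, to -0.026 without WT replicate 3 and to -0.033 after the GC correction.

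GYS1, the glycogen synthase of tissues other than liver and the classical GSK3 substrate (chromosome 19, 48968125 to 48993310, minus strand), had 125, 125 and 131 CPM in KO replicates 1 to 3, against 136, 133 and 139 CPM in WT replicates 1 to 3. All KO libraries lay below all WT libraries, by a small margin, and the gene did not pass the test. Its log2 fold change was -0.10 ± 0.04 (SE; edgeR, adjusted p = 0.125), and the interval of the KO level, 88.0% to 99.2% of WT, excludes a fall of the size seen in PPP1R3B. After the correction for GC content it was -0.01 (adjusted p = 0.884). The GC content of its longest transcript is 58.7%, the highest of the 10 genes.

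GBE1, the branching enzyme (chromosome 3, 81489699 to 81762161, minus strand), had 43.2, 46.8 and 43.5 CPM in KO replicates 1 to 3, against 50.2, 52.3 and 47.4 CPM in WT replicates 1 to 3. The groups did not overlap, but KO replicate 2 and WT replicate 3 were within 1 CPM. Its log2 fold change of -0.17 ± 0.06 (SE) was just outside the threshold (edgeR, adjusted p = 0.0571). It passed after the GC correction at the same value (adjusted p = 0.0125), with the replicate number as a block (adjusted p = 0.0391) and without WT replicate 3 (-0.20, adjusted p = 0.0114). In the other fits without 1 library it did not pass, with adjusted p (edgeR) from 0.0604 without WT replicate 1 to 0.244 without WT replicate 2. GYG1, the glycogenin of most tissues (chromosome 3, 148991341 to 149027668, plus strand), had 62.5, 67.2 and 66.8 CPM in KO replicates 1 to 3, against 65.4, 66.5 and 66.1 CPM in WT replicates 1 to 3. Its KO level was 99.3% of WT (95% interval 92.4 to 107; edgeR, adjusted p = 0.921), and its log2 fold change of -0.011 turned to 0.022 without KO replicate 1 and to 0.021 after the GC correction. GENCODE 29 names 3 pseudogene copies of GYG1, and its counts are uncertain where reads were shared with them. Of the 3 synthesis genes 0 passed edgeR, DESeq2 or limma-voom, and 2, GYS1 and GBE1, had an unadjusted p under 0.05 in edgeR, as had 28% of all tested genes in either direction.

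Breakdown was represented by 2 phosphorylase genes, since PYGM, the muscle form, had 1, 1 and 0 counts in KO replicates 1 to 3 and 0 in each WT library. PYGL, the form named for liver (chromosome 14, 50857891 to 50944736, minus strand), had 102, 104 and 104 CPM in KO replicates 1 to 3, against 111, 111 and 113 CPM in WT replicates 1 to 3. The groups did not overlap, yet the difference of -0.11 ± 0.04 (log2, SE) did not pass (edgeR, adjusted p = 0.0761). With scaling by library size alone it was -0.13 and passed (adjusted p = 0.0399). PYGB, the form named for brain (chromosome 20, 25248069 to 25298014, plus strand), had 132, 132 and 130 CPM in KO replicates 1 to 3, against 123, 128 and 132 CPM in WT replicates 1 to 3. Its groups overlapped through WT replicate 3, and its log2 fold change was 0.04 ± 0.04 (SE; edgeR, adjusted p = 0.588). It was 0.012 without WT replicate 1 and 0.064 without WT replicate 3, and passed in neither. After the GC correction PYGB was higher in KO cells, by 0.13 on the log2 scale (edgeR, adjusted p = 0.00372), when 21.3% of tested genes were called. Its transcript, with 58.5% GC, is next to that of GYS1 in GC content.

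The ratio of PYGL to PYGB counts within a library was 0.778, 0.789 and 0.799 in KO replicates 1 to 3, against 0.902, 0.871 and 0.861 in WT replicates 1 to 3. All KO ratios were below all WT ratios. Among single tested genes, 31.3% also had groups that did not overlap, in either direction, and neither PYGL nor PYGB passed the test alone. The share among ratios of genes was not computed. The log2 ratio differed by -0.15, KO minus WT (exact permutation p = 0.1, the smallest possible), and by -0.20 after the GC correction. Counted at every position, the longest transcripts of PYGL and PYGB have 5 sequences of 31 bases in common, which may overlap, so few reads could match both genes. PYGL shares 180 of its 4798 exon positions with an antisense gene.

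Across the 9 tested genes, KO lay below WT without overlap in 5 (GYS1, GBE1, PYGL, PGM1 and PPP1R3B) and above it in 0. Over all tested genes 15.9% lay below without overlap and 15.4% above. Without KO replicate 2, KO replicate 3 or WT replicate 2 the count of changed members was 1, PPP1R3B alone, when 6.5%, 8.24% and 7.35% of tested genes were called. With the GC correction it was 4, with GBE1, PGM1 and PPP1R3B lower and PYGB higher, when 14% of genes were higher and 7.33% lower (21.4% in all with the block added). It was also 4 with scaling by library size alone, when 13% of genes were called. It was 3, with GBE1 in addition, with the replicate block (15.2% of genes called), the filter of 1 CPM (15.1%), no filter (11.5%) and without WT replicate 3 (14%). It stayed at 2 with RLE scaling (13.6%), without robust estimation (13.4%), without KO replicate 1 (7.48%) and without WT replicate 1 (17.3%).

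**Figure D2:**
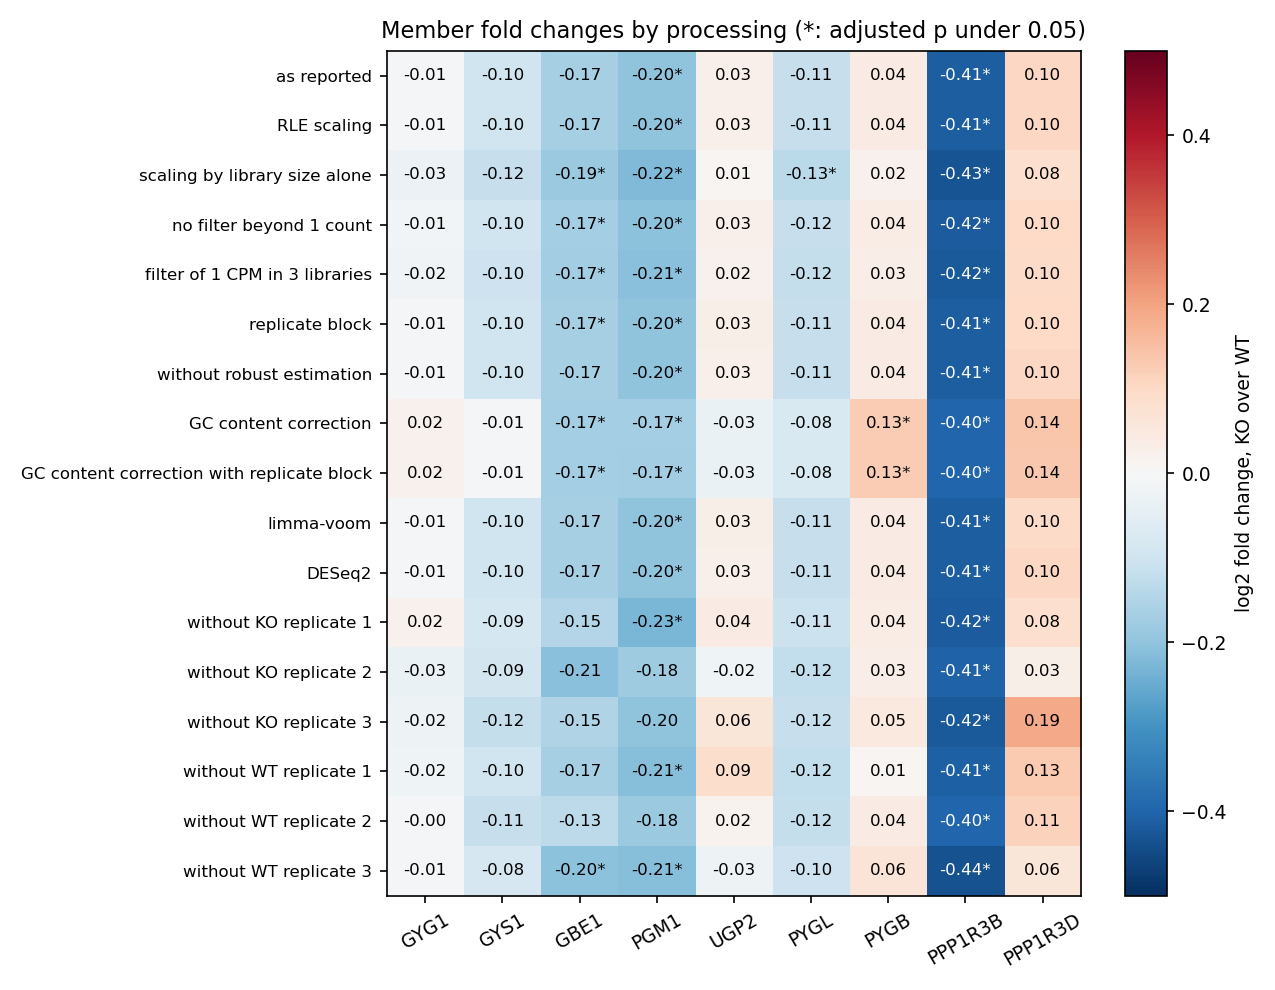
Log2 fold change, KO over WT, of each tested glycogen gene (columns) in the fit reported and under each alternative processing or with 1 library left out (lines of the grid), with an asterisk where the adjusted p was under 0.05. PPP1R3B keeps a value between -0.44 and -0.40 and its asterisk throughout, PGM1 loses its asterisk without KO replicate 2, KO replicate 3 or WT replicate 2, and GYS1 moves to -0.01 with the GC correction.

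Levels of different genes were compared as CPM per kilobase of the longest annotated transcript. GYS1 was highest, at 35.5 ± 0.876 CPM per kilobase in KO cells and 38.1 ± 0.868 in WT cells (SD, n = 3). PYGL followed at 33.9 ± 0.313 in KO cells and 36.7 ± 0.425 in WT cells, then GYG1 at 31.9 ± 1.25 in KO cells and 32.2 ± 0.262 in WT cells, and PYGB at 31.7 ± 0.263 in KO cells and 30.8 ± 1.03 in WT cells. Below these came PGM1 at 16.8 ± 0.661 in KO cells and 19.3 ± 0.399 in WT cells, and PPP1R3B at 14.5 ± 0.189 in KO cells and 19.3 ± 0.565 in WT cells. GBE1 stood at 12.9 ± 0.588 in KO cells and 14.4 ± 0.712 in WT cells, UGP2 at 11.7 ± 0.670 in KO cells and 11.5 ± 0.941 in WT cells, and PPP1R3D lowest at 4.85 ± 0.541 in KO cells and 4.52 ± 0.246 in WT cells. Neighbours whose libraries overlapped were GYG1 and PYGB in KO cells, and GYS1 with PYGL and PPP1R3B with PGM1 in WT cells. PPP1R3B and PGM1 thus stood together in WT cells, and in KO cells every PPP1R3B library was below every PGM1 library. The order depended on the length used. By the length of all annotated exons together GYG1 was at 18.7 CPM per kilobase in KO cells and 18.8 in WT cells, where its libraries overlapped those of PPP1R3B, and PYGL was at 21.6 in KO cells and 23.3 in WT cells. By that length PYGB was second, and PPP1R3B above PGM1 in both groups (13.9 and 10.6 CPM per kilobase in KO cells, 18.6 and 12.2 in WT cells).

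**Figure D3:**
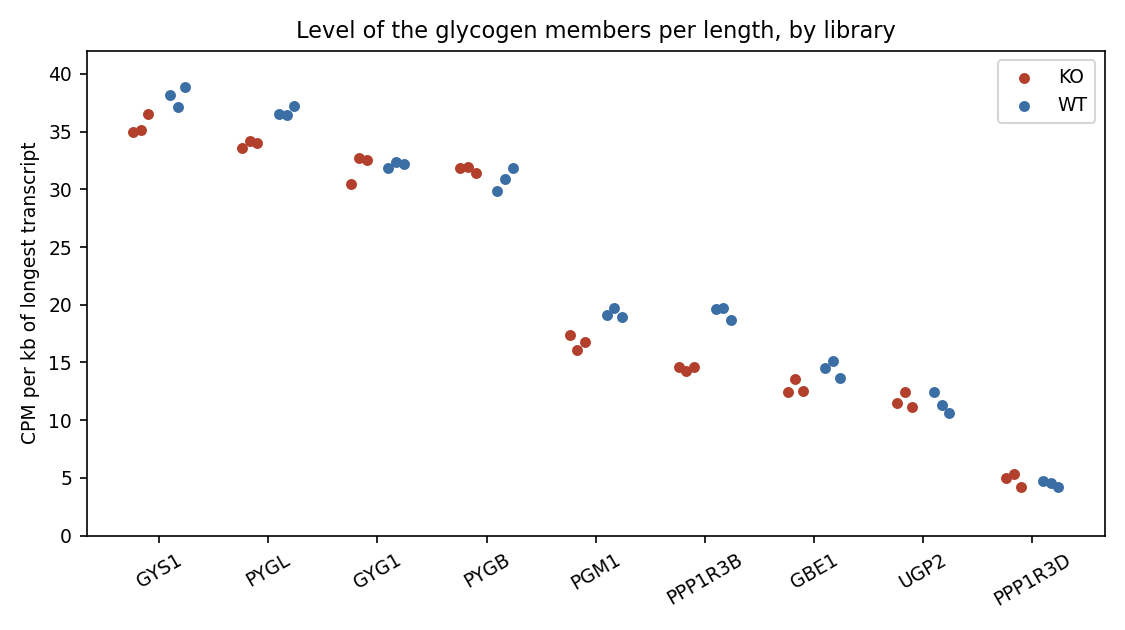
CPM per kilobase of the longest transcript for the 9 tested glycogen genes, ordered by KO level, with each KO library (red, left of each pair) and WT library (blue, right) as a point and a linear axis from 0. GYS1, PYGL, GYG1 and PYGB lie between 29.8 and 38.9 CPM per kilobase, and PPP1R3D near 5; by the length of all exons GYG1 and PYGL lie lower.

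Promoter windows, the 250 bases before the RefSeq start (GRCh38.p14), were at hand for 9 of the 10 genes, all but PPP1R3B. GYS1, GBE1, PGM1 and PPP1R3C are known as genes that respond to hypoxia. The windows were therefore searched on both strands for ACGTG, a form of the core bound by hypoxia-inducible factors. Other forms of that core were not searched. The E-box CACGTG, each copy of which holds ACGTG on both strands, was searched as well. ACGTG occurred in 4 of the 9 windows, those of GYG1, GBE1, PPP1R3C and PPP1R3D, and in 18.5% of 35116 windows of all genes. CACGTG occurred in 3 of them, those of GYG1, PPP1R3C and PPP1R3D, and in 6.34% of all. The TCF/LEF core ATCAAAG occurred in 0 of the 9 and in 2.26% of all. TGACGT, the half-site of the cAMP response element, occurred in 0 of the 9 and in 7.1% of all. The windows of all genes were not matched to those of the members by GC content or expression, so these shares are only a description. A match is only a match of letters, and binding was not measured. The windows printed are those of PGM1, the gene with a window that passed the test, GBE1, which lay nearest the threshold, and PPP1R3C, which had the most matches and 2 counts in all. Capitals mark ACGTG or its reverse complement. They lie at chr1:63622966-63623215 (plus strand), chr3:81761646-81761895 (minus) and chr10:91633072-91633321 (minus). The RefSeq start used for PGM1 lies 29940 bases inside the gene as GENCODE 29 draws it, so its window is that of an internal start. The start used for GBE1 lies 516 bases inside its gene, so its window and the ACGTG match also lie within the gene. Those of UGP2, PYGL and GYG1 lie 956, 253 and 199 bases inside. The GYG1 matches, 43 and 42 bases before its start, therefore also lie within the gene.
PGM1: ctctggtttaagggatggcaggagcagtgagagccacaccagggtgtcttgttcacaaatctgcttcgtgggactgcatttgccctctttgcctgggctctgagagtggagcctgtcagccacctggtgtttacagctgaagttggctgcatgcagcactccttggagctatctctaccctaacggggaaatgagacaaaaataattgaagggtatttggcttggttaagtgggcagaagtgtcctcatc
GBE1: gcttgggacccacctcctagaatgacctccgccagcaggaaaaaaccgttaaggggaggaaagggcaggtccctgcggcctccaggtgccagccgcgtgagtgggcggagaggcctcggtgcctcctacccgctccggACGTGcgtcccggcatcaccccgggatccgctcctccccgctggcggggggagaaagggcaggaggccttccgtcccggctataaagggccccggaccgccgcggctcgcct
PPP1R3C: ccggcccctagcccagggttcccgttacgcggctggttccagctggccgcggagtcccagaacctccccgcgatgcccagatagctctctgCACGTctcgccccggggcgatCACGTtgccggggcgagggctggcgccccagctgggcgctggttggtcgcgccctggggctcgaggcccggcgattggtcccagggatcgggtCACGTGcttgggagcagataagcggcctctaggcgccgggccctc
The PGM1 window, with 51.2% GC, has 0 matches. The GBE1 window, with 70.0% GC, has 1, at 112 bases before the start. The PPP1R3C window, with 72.4% GC, holds an E-box 45 bases before the start and ACGTG on the opposite strand at 159 and 138.

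Around the members, 44 further genes of glycogen metabolism, also chosen with earlier results of these data known, were examined, of which 36 could be tested. In edgeR 2 were higher and 4 lower in KO cells, in all 6 of 36, where 13.5% of all tested genes were called. The 4 that fell all belong to the genes that supply or use glucose-6-phosphate. SLC2A1, the glucose transporter GLUT1, had 114 ± 3.25 CPM in KO cells and 175 ± 2.35 CPM in WT cells (SD, n = 3; log2 fold change -0.61, adjusted p = 4.42e-10), and the hexokinase HK2 had 339 ± 7.48 CPM in KO cells and 466 ± 3.63 CPM in WT cells (log2 fold change -0.46, adjusted p = 1.14e-09). GPI, which turns glucose-6-phosphate toward glycolysis, changed by -0.17 and the hexokinase HK1 by -0.12 (adjusted p = 0.00381 and 0.0381). The other 4 tested genes of this group, PGM2, PGM2L1, G6PC3 and SLC2A3, did not pass. HK1 did not pass without KO replicate 1 or 2 or WT replicate 2 (log2 fold change -0.11, -0.11 and -0.13), nor after the GC correction (-0.08).

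The 2 that rose were PRKAG2 and UGGT1. PRKAG2, a regulatory subunit of the kinase AMPK, which also phosphorylates glycogen synthase, had 67.2, 75.0 and 70.1 CPM in KO replicates 1 to 3, against 64.8, 61.7 and 59.1 CPM in WT replicates 1 to 3 (log2 fold change 0.19; edgeR, adjusted p = 0.0175). It did not pass without KO replicate 2, KO replicate 3 or WT replicate 2 (0.15, 0.20 and 0.19). The other 9 tested synthase kinase genes of the wider list, among them every other tested AMPK subunit, did not pass. UGGT1, an enzyme of the endoplasmic reticulum that adds glucose from UDP-glucose to misfolded glycoproteins, changed by 0.12 (adjusted p = 0.0381). The other 3 tested UDP-glucose users of the wider list did not pass. UGGT1 passed among the fits without 1 library only in that without WT replicate 3, with values of 0.11 to 0.14 over the 6 fits, and did not pass with scaling by library size alone (0.10, adjusted p = 0.0808). Without KO replicate 2 or WT replicate 2 the count of changed genes among the 36 was 3, near the share of all tested genes called in those fits (6.5% and 7.35%).

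The remaining roles had no call in edgeR, DESeq2 or limma-voom. The PP1 catalytic subunits, through which any PPP1R3 subunit acts, had 0 of 3 called and 1 with an unadjusted p under 0.05, near the 28% of all tested genes. That 1 was PPP1CC, the most abundant, at 309 ± 12.4 CPM in KO cells and 285 ± 17.4 CPM in WT cells (adjusted p = 0.0704). Of the 5 phosphorylase kinase subunits, which switch phosphorylase on, 0 were called and 0 had an unadjusted p under 0.05, with PHKA1 at 77.2 ± 1.33 CPM in KO cells and 76.2 ± 1.98 CPM in WT cells. The acid glucosidase GAA, which breaks glycogen down in lysosomes, had 63.8 ± 3.19 CPM in KO cells and 69.1 ± 6.69 CPM in WT cells. PPP1R3E, a low-level targeting subunit, had 4.23, 4.63 and 3.85 CPM in KO replicates 1 to 3, against 5.56, 4.92 and 5.52 CPM in WT replicates 1 to 3 (log2 fold change -0.33; edgeR, adjusted p = 0.109). PPP1R3F, at 0.771 ± 0.214 CPM in KO cells and 1.09 ± 0.430 CPM in WT cells, did not pass either. EPM2A, which encodes the glycogen phosphatase laforin, had 2.91 ± 0.685 CPM in KO cells and 2.93 ± 0.565 CPM in WT cells. GSK3A, the paralog of GSK3B, stood at 102% of WT (95% interval 95.3 to 110; edgeR, adjusted p = 0.731). Of the 8 genes that could not be tested, GYG2, PPP1R3A, SLC37A4 and PRKAA2 were listed at 0 in all libraries, which is not read as absence of expression, since SLC37A4 is widely expressed. The liver synthase GYS2 had at most 3 counts in a library, and PYGM, PPP1R3G and NHLRC1 were also too low.

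**Figure D4:**
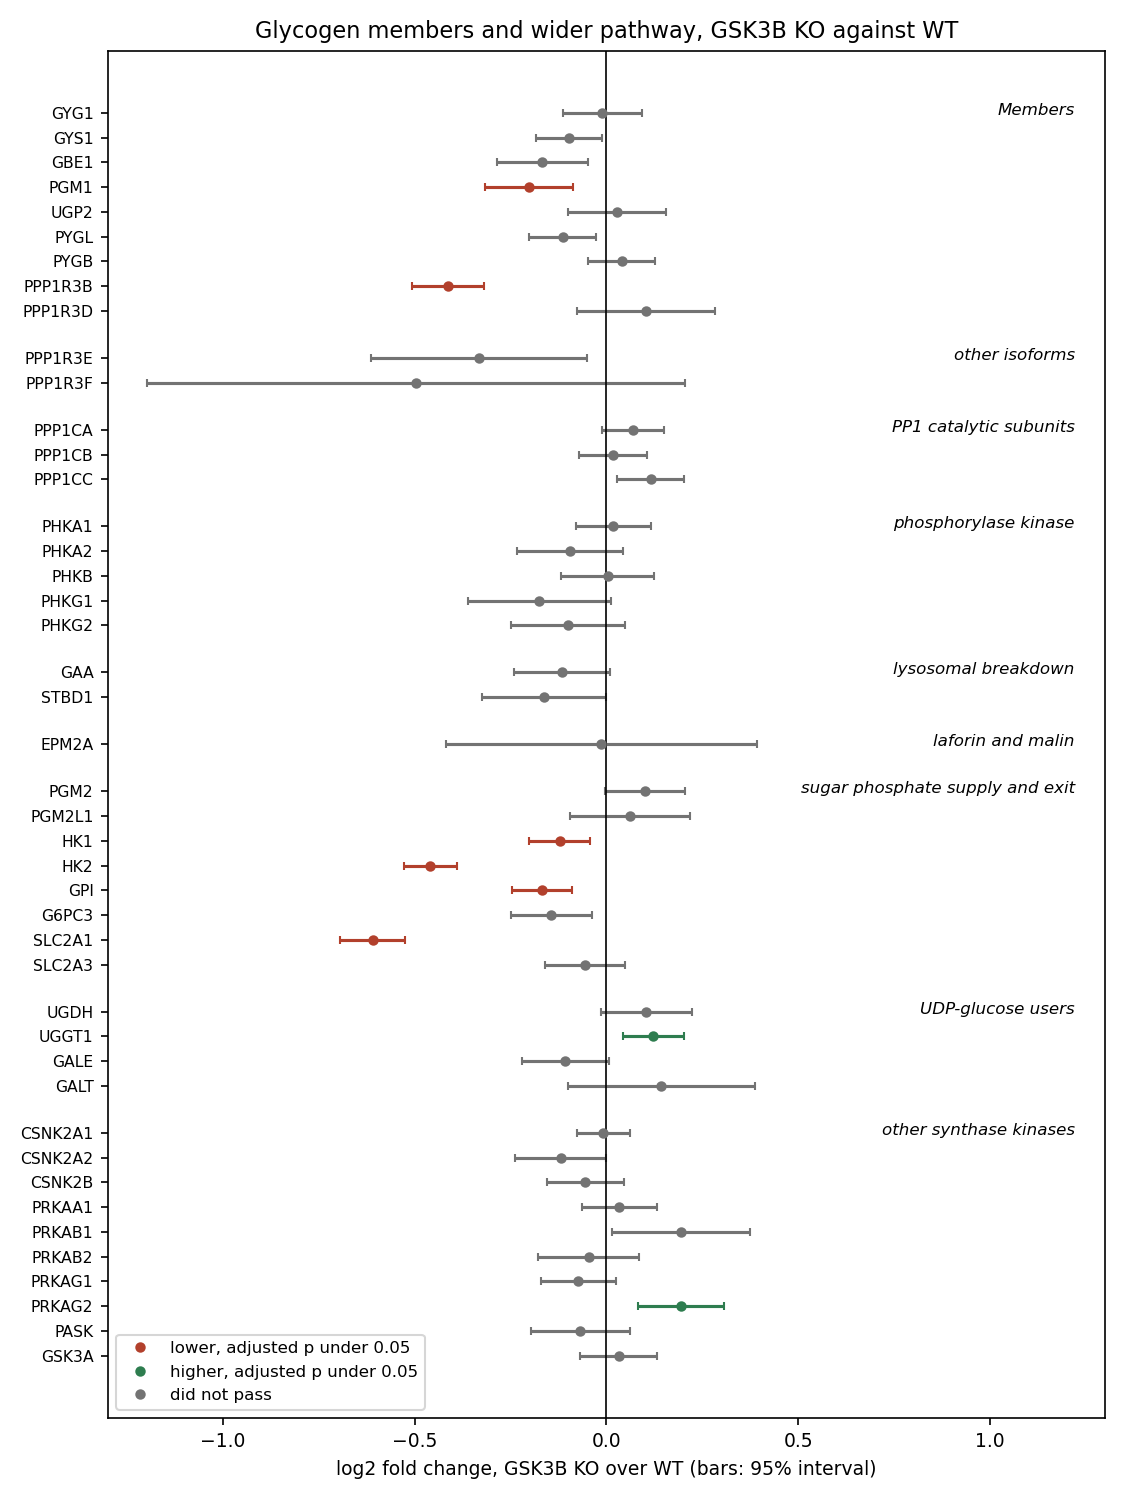
Log2 fold change, KO over WT, with its 95% interval (edgeR, n = 3 per group) for the 9 tested members and 35 of the 36 tested genes of the wider pathway, grouped by role. Red marks genes lower and green genes higher at an adjusted p under 0.05, and the red points are PGM1, PPP1R3B, HK1, HK2, GPI and SLC2A1.

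The genes whose pattern over the 6 libraries was most like that of PPP1R3B, by the root mean square difference of log2 CPM centred on each gene's mean, were LDHA (0.022), DACH1 (0.029) and LOC100132077 (0.031), among 14397 genes. Those most like PGM1 were CPQ (0.017), WASH3P (0.018) and GM2A (0.021). These distances are a description of 6 libraries in 2 groups.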

How the data were processed

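The submitters' processing notes name hg38, TopHat, edgeR and limma, without roles. The deposited values are raw whole-number counts per gene symbol, 1 table per library, not normalized. No counting program, annotation or strand setting is named in them. Groups and replicate numbers came from the sample titles.

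The filterByExpr rule of edgeR 4.0.16 (R 4.3.3), at a minimum count of 10 and a total of 15, kept 14409 genes. After TMM scaling, group alone was fitted in edgeR's robust quasi-likelihood test. P-values were adjusted by Benjamini-Hochberg over all tested genes, with a threshold of 0.05. Standard errors are the fold change over the root of F. Within groups, pairs of libraries had a chi-square per degree of freedom of 3.17 to 9.71. It was highest for WT replicate 3 with WT replicates 1 and 2 (9.71 and 6.00). That is more spread than counting error alone, but it does not show that the libraries are separate cultures. Each library was counted as 1 replicate. Intervals of counts cover counting error only.

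Symbols were matched to GENCODE 29 (26218 of 28278), which gave coordinates, lengths and GC content; 95.9% of tested genes had a GC content. Promoter windows are from RefSeq. Single values of some listed genes are not reported here. The members and lists were chosen with earlier results of these data known. Named were all members, GSK3B and GSK3A, every called gene of the wider list, the most abundant gene of each of its roles without a call, and the 3 genes nearest in pattern to each called member. Alternatives were RLE scaling, scaling by library size, 2 other filters, a replicate block, a GC correction (per library, by a spline of 5 degrees of freedom), both together, estimation without the robust option, DESeq2 1.42.0, limma-voom (limma 3.58.1) and leaving out each library.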

Additional observations from a re-analysis of the deposited data

How the results depend on the processing

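PPP1R3B, GSK3B, HK2, GPI and SLC2A1 kept their direction and call in all 16 alternatives. PGM1 kept its direction in all 16 and its call in 13, with values of -0.23 to -0.18 without 1 library. GBE1 passed with scaling by library size alone (-0.19), without a filter, with the filter of 1 CPM, with the replicate block and with the GC correction with or without that block (-0.17 in each). It ran from -0.21 to -0.13 without 1 library, where it passed only without WT replicate 3. PYGL passed with library size alone (-0.13) and PYGB with the GC correction, with or without the block (0.13 in both). GYG1 and UGP2 turned sign with the GC correction, with or without the block (0.021 and -0.033), and ran from -0.032 to 0.022 and from -0.026 to 0.087 without 1 library. The ratio of PYGL to PYGB moved to -0.20 with the GC correction. With the union of exons the KO level of GYS1 moved to 29.9 CPM per kilobase, of PYGB to 29.3 and of PYGL to 21.6. That of GYG1 moved to 18.7, of PPP1R3B to 13.9, of PGM1 to 10.6, of GBE1 to 8.61 and of UGP2 to 7.91. These levels fell because the same CPM was divided by a longer length. The cause of the other moves was not tested.

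The count of changed members was 4 with library size alone and with the GC correction, with or without the block, and 1 to 3 without 1 library. That of the wider list was 3 to 8 without 1 library. Over all genes 1951 changed, 47.0% of them higher, against 34.6% with library size alone (649 higher, 1229 lower) and 65.6% with the GC correction (2017 higher, 1056 lower; 3073 in all, and 3089 with the block), and 950 to 2531 without 1 library.

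The labels do not say whether the replicate numbers pair the samples, and 3 libraries per group cannot settle it. Deviations of same-numbered libraries correlated at 0.0566, -0.0173 and 0.0276 (replicates 1 to 3). KO replicate 1 correlated best with WT replicate 1, KO replicate 2 with WT replicate 1 (0.0404) and KO replicate 3 with WT replicate 2 (0.0673). With the replicate block 3 members were called, GBE1 in addition, and 2193 of all genes. A ratio within 3 against 3 libraries cannot give an exact p below 0.1, nor below 0.25 with the block.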
